A study of Mus musculus with 36 samples.

Results

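The phagocyte NADPH oxidase, inducible nitric oxide synthase and the arginases were followed through 8 genes, chosen by name from the 27562 genes of the FPKM table. Of these, 5 belong to the oxidase (Cybb, Cyba, Ncf1, Ncf4 and Rac2) and 3 use arginine (Nos2, Arg1 and Arg2). FPKM are fragments per kilobase of exon, scaled to the mapped fragments of a library, so levels of different genes can be set side by side per length. Alveolar macrophages (AΦ) held more Ncf1 and far less Rac2 and Ncf4 than lung monocytes, CD45.2 monocytes held less Rac2 at 32-weeks than at 4-weeks, with a fall of Cybb whose call was lost under several alternatives, and no member passed the test for PM2.5 against filtered air (FA) in any cell population.

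RNA-sequencing was made from AΦ and monocytes sorted from the lungs of male chimeric mice after 4-weeks or 32-weeks in chambers with FA or concentrated ambient PM2.5. There were 36 libraries in 12 groups of 3. From each exposure and time point 3 mice were taken for sequencing, so libraries of different cells, as in the comparisons of AΦ with monocytes and of origins, may share mice, and which ones do is not given in the sources used here. All mice were C57BL/6J recipients (CD45.2) that had been lethally irradiated with the chest shielded, given busulfan, and grafted with marrow of B6.SJL-Ptprc a Pepc b/BoyJ donors (CD45.1), so FA controls carry the same treatment and the recipients keep a small share of their own circulating monocytes. Resident cells (TR-AΦ) were sorted as CD45.2 and bone marrow-derived cells (BM-AΦ) as CD45.1, which means that origin and strain cannot be told apart.

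At 4-weeks there were TR-AΦ and CD45.2 monocytes in FA and in PM2.5. At 32-weeks there were TR-AΦ, BM-AΦ and monocytes labelled 1 and 2, each in FA and in PM2.5. Monocytes 1 and 2 were read as CD45.1 and CD45.2 cells from the same numbering of AΦ, so their origin rests on that reading. Mice of 32-weeks were also older, and the length of stay and age cannot be told apart. Whether cells of both time points were sorted and sequenced together is not given, so a batch of that kind cannot be told apart from time either.

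The phagocyte oxidase moves electrons from NADPH across a membrane to oxygen and makes superoxide for the killing of microbes. Its core is a pair of membrane proteins, Cybb (gp91phox, which carries the electrons) and Cyba (p22phox, which stabilises it), and it is switched on when cytosolic proteins, among them Ncf1 (p47phox) and Ncf4 (p40phox), join the core with a Rac GTPase. Nos2 makes nitric oxide from arginine, while Arg1 (in the cytosol) and Arg2 (in mitochondria) split arginine into ornithine and urea, and in mouse macrophages Nos2 and Arg1 are widely used as signs of classical and alternative activation.

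The stretches upstream of 3 oxidase genes are shown because the ETS factor PU.1 (Spi1), which binds a GGAA core, is known to drive oxidase genes in myeloid cells. They are the 250 bases before the RefSeq start on GRCm38.p6, written 5′ to 3′ on the strand of the gene, with GGAA and its reverse complement TTCC in capitals. All 3 genes are on the minus strand, Cybb at chrX:9469325-9469574, Cyba at chr8:122432941-122433190 and Ncf1 at chr5:134229626-134229875.
Cybb: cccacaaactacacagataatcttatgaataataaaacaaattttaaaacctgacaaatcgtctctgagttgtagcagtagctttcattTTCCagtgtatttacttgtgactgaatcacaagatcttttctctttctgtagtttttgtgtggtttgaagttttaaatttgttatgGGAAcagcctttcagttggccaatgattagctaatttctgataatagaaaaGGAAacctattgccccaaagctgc
Cyba: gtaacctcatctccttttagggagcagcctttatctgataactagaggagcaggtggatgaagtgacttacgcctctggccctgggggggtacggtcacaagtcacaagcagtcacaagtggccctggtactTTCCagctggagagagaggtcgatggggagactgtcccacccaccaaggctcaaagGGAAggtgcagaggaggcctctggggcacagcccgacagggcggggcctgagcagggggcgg
Ncf1: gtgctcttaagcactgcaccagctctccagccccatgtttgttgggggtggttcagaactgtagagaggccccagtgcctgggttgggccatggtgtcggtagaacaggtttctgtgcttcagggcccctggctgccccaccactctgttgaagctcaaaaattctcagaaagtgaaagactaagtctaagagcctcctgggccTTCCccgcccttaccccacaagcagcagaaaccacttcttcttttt
Cybb held 3 matches, whose leftmost bases lie 161, 75 and 24 bases before the start. Cyba held 2, at 118 and 62 bases, and Ncf1 held 1, at 46 bases. The core was in 93.45% of 32851 promoters of the same length, with a median of 3 matches, so these windows held no more of it than most. The longer GAGGAA, which contains GGAA, was in 23.25% of all promoters and in none of the 3. A match is a description of letters only. Ncf4, Rac2, Nos2, Arg1 and Arg2 had no entry. The Cybb window lies inside the gene by the GENCODE annotation that follows, which places the start of Cybb farther upstream than RefSeq. In the GENCODE M21 annotation of mm10 the genes lie at chrX:9435252-9487771 (Cybb), chr8:122424776-122432930 (Cyba), chr5:134220053-134229625 (Ncf1, which overlaps Gtf2ird2), chr15:78244801-78262580 (Ncf4), chr15:78559167-78572783 (Rac2), chr11:78920787-78960254 (Nos2), chr10:24915221-24927484 (Arg1) and chr12:79130777-79156301 (Arg2), all of them protein-coding.

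The labelled cell types were checked against markers. All 12 AΦ markers of the table (such as Siglecf, Car4 and Fabp4) were at 1 FPKM or more in each of the 18 AΦ libraries. In monocytes 6 to 12 of them were at that level, so the count alone does not part the cell types. Their summed levels were 6721 to 14219 FPKM in AΦ against 300.1 to 1668 FPKM in monocytes. The 10 monocyte markers summed to 1338 to 4861 FPKM in monocytes and to 139.3 to 633.3 FPKM in AΦ. The 4-weeks monocytes of replicate 2 stood apart, with 12 neutrophil markers at 410.2 FPKM in FA against 1159 FPKM in PM2.5 against 33.1 to 123.7 FPKM in all other monocyte libraries. Markers of interstitial macrophages (7 genes, such as C1qa and Mrc1) summed to 4.43 to 422.8 FPKM in 4-weeks monocytes, 326.4 to 1050 FPKM in monocytes 1 and 914.6 to 3388 FPKM in monocytes 2. The same list summed to 233.3 to 787.1 FPKM in the 18 AΦ libraries, so it is not specific to interstitial macrophages. Markers of dendritic cells (7 genes, such as Ccr7 and Cd209a) summed to 9.26 to 31.4 FPKM in BM-AΦ and 1.51 to 4.86 FPKM in TR-AΦ at 32-weeks. They summed to 2.41 to 22.2 FPKM in TR-AΦ at 4-weeks and 11.3 to 164.8 FPKM in monocytes. Clec9a of this list went the other way, with a mean of 1.68 FPKM in AΦ against 0.430 FPKM in monocytes at 4-weeks. At 32-weeks its means were 3.59 FPKM in BM-AΦ against 0.886 FPKM in monocytes 1, and 1.64 FPKM in TR-AΦ against 0.963 FPKM in monocytes 2. No 2 libraries held identical values.

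The 2 membrane subunits were the most abundant members. By mean FPKM over the 18 AΦ libraries Cybb ranked 366 and Cyba ranked 356 among all genes, and over the 18 monocyte libraries they ranked 346 and 457. Ncf1 ranked 861 in AΦ and 1312 in monocytes, and Rac2 ranked 1997 and 1154. Ncf4, at 7058 and 4086, was the least abundant oxidase member in both cell types, while Arg2 (11783 and 7447), Arg1 (12134 and 14654) and Nos2 (20974 and 24130) lay lower still.

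**Figure D1:**
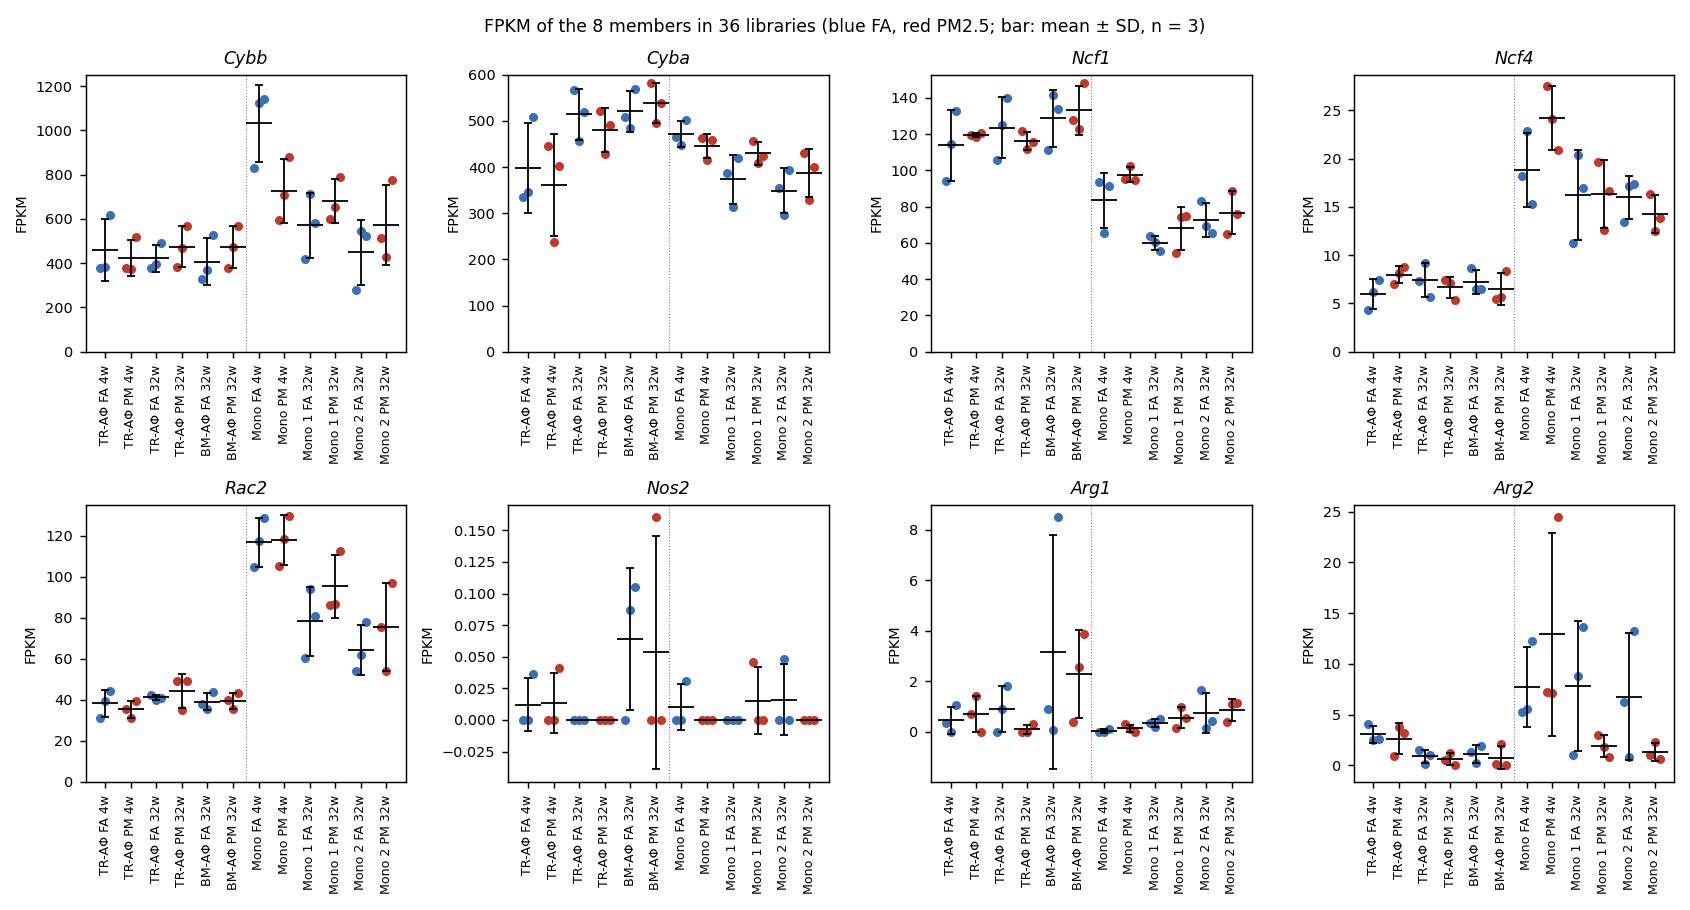
FPKM (linear y axes, a separate scale per gene) of the 8 genes in each of the 36 libraries, in 12 groups on the x axis, with AΦ left and monocytes right of the dotted line. Points are libraries (blue FA, red PM2.5) and black bars are the mean ± SD of 3. Every monocyte library lies above every AΦ library for Rac2 and Ncf4, and Nos2 does not exceed 0.160 FPKM in any library.

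Exposure was compared first, as the contrast the study was built on. None of the members tested (7 in AΦ, where Nos2 did not reach a mean of 1 FPKM, and 6 in monocytes, where Arg1 did not either) passed limma's test at an adjusted p of 0.05 in any of the 6 comparisons of PM2.5 with FA. None had an unadjusted p under 0.05. Over all genes the share called was 0.0079% in TR-AΦ at 4-weeks, 0% in TR-AΦ at 32-weeks, 0.0158% in BM-AΦ, 0.00778% in monocytes at 4-weeks, and 0% in both monocytes 1 and monocytes 2. The unadjusted p was under 0.05 for 2.94%, 3.13%, 2.05%, 2.12%, 4.74% and 4.25% of all genes in the same order.

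The widest gap by exposure among the oxidase members was that of Cybb in 4-weeks monocytes, which held 831.4, 1121 and 1143 FPKM in FA against 594.6, 706.6 and 880.6 FPKM in PM2.5. The lowest FA library lay below the highest PM2.5 library. The log2 fold change of PM2.5 over FA was -0.51 (adjusted p = 1, exact permutation p = 0.2, where 3 against 3 libraries cannot go below 0.1). At 32-weeks Cybb went to the other side, with 0.28 in monocytes 1 and 0.36 in monocytes 2, both also within the spread.

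Ncf1 was the single member whose groups did not overlap by exposure, in 4-weeks monocytes. It held 93.4, 65.7 and 91.1 FPKM in FA against 95.5, 102.2 and 94.7 FPKM in PM2.5. The PM2.5 libraries were all higher, by a margin of little over 1 FPKM above the highest FA library. The log2 fold change was 0.24, with an exact permutation p of 0.1, the smallest possible, and 6.57% of all genes had groups that did not overlap in that comparison. In the other exposure comparisons that share was 5.82%, 5.98% and 6.44% for TR-AΦ at 4-weeks, TR-AΦ at 32-weeks and BM-AΦ, and 8.89% and 6.39% for monocytes 1 and 2, with no member among them.

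Ncf4, the p40phox adaptor that reads a membrane lipid, gave the smallest unadjusted p of the AΦ comparisons. In TR-AΦ at 4-weeks it held 4.36, 6.13 and 7.45 FPKM in FA against 7.06, 8.11 and 8.80 FPKM in PM2.5. The groups overlapped by 1 FA library, the log2 fold change was 0.39 and the unadjusted p was 0.0861 (adjusted p = 1). At 32-weeks the log2 fold change of Ncf4 by exposure was -0.12 in TR-AΦ and -0.14 in BM-AΦ.

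Arg2 had the largest fold changes by exposure and the widest spread. Monocytes 1 held 0.967, 8.78 and 13.6 FPKM in FA against 2.98, 1.77 and 0.840 FPKM in PM2.5. Monocytes 2 held 6.25, 0.781 and 13.3 FPKM in FA against 0.996, 2.26 and 0.562 FPKM in PM2.5. In both populations FA had 2 libraries far above every PM2.5 library and 1 library among them. The log2 fold changes were -1.27 and -1.39, with exact permutation p of 0.3 in each and adjusted p of 0.976 and 1. In 4-weeks monocytes the difference was 0.54 in the opposite direction, with 1 PM2.5 library at 24.4 FPKM, the library with 1159 FPKM of neutrophil markers, whose part was not tested.

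The difference of the exposure effects themselves was also tested in AΦ, between 4-weeks and 32-weeks in TR-AΦ and between BM-AΦ and TR-AΦ at 32-weeks. None of the 7 members tested was called by limma or had an unadjusted p under 0.05 in either, where 0.0079% and 0.0158% of all genes were called and 3% and 1.89% had an unadjusted p under 0.05.

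Time was compared within the CD45.2 cells, which were sorted at both time points. In CD45.2 monocytes Rac2, the Rac GTPase specific to blood cells, and Cybb fell from 4-weeks to 32-weeks, and all 6 members tested had a log2 fold change below 0. The share of all genes called in this comparison was 14.9%, or 7.83% for lower genes alone. By unadjusted p under 0.05 there were 5 of 6 members (all but Ncf1) and 27.4% of all genes. The median of the 6 members was -0.62 on the log2 scale, against -0.05 for all genes tested. As these are bulk samples, fewer cells of a type and less RNA per cell cannot be told apart.

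Rac2 held 104.6, 117.5 and 128.3 FPKM in FA monocytes and 105.2, 118.3 and 129.7 FPKM in PM2.5 monocytes at 4-weeks. In monocytes 2 at 32-weeks it held 53.8, 61.9 and 77.7 FPKM in FA against 75.6, 53.9 and 96.9 FPKM in PM2.5. Every library of 4-weeks was above every library of 32-weeks, and the 3 values of FA and PM2.5 at 4-weeks almost coincided. The log2 fold change of 32-weeks over 4-weeks was -0.76 ± 0.16 (SE, 6 libraries each, adjusted p = 0.00589), and 3.66% of all genes had groups that did not overlap in this direction. The 2 lowest libraries, 53.8 and 53.9 FPKM, were those with the highest interstitial macrophage markers, 3388 and 2906 FPKM, whose part was not tested. All 7 of these markers were higher at 32-weeks by limma, with a median log2 fold change of 4.31. With only replicates 0 and 1, which leaves out the libraries with high neutrophil markers, Rac2 had -0.86 (adjusted p = 0.0284).

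Cybb held 281 to 774 FPKM in monocytes 2 at 32-weeks, with 280.9, 545.9 and 521.3 FPKM in FA against 513.2, 427.8 and 774.1 FPKM in PM2.5, against the 594.6 to 1143 FPKM of the 4-weeks monocytes given above. A single library of 32-weeks reached into the 4-weeks range. The log2 fold change was -0.81 ± 0.22 (adjusted p = 0.0206), and it lost its call in several alternatives. Without FA replicate 2 or PM2.5 replicate 2 of 4-weeks it was -0.77 (adjusted p = 0.0508) and -0.73 (0.0537), and without FA replicate 0 or PM2.5 replicate 1 of monocytes 2 it was -0.65 (0.0510) and -0.72 (0.0583). With quantile normalization it was -0.67 (0.0559), and with each library rescaled to the same sum it was -0.67 (0.0818).

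The other oxidase members in CD45.2 monocytes did not pass the adjusted threshold. Ncf4 had a log2 fold change of -0.47 (adjusted p = 0.0640), Cyba of -0.33 (0.0856) and Ncf1 of -0.27 (0.193). Arg2 had the largest value, -1.49 (0.0912), from 5.28 to 24.4 FPKM at 4-weeks to 0.562 to 13.3 FPKM at 32-weeks, with overlap. Without FA replicate 2 of monocytes 2, the library at 13.3 FPKM, Arg2 was called at -1.82 (adjusted p = 0.0393). Arg1 was outside the model, and at 0 to 0.298 FPKM at 4-weeks against 0.168 to 1.67 FPKM at 32-weeks it gave an exact permutation p of 0.00433 on a log2 difference of 0.68, at levels where the reads behind a value are not known. With no filter on low values limma called it (adjusted p = 0.0470).

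In TR-AΦ no member was called by limma for 32-weeks against 4-weeks, while 5.91% of all genes were. By unadjusted p under 0.05 there were 2 of 7 members and 22.3% of all genes. These were Cyba, at 237.2 to 509.5 FPKM at 4-weeks and 428.0 to 566.4 FPKM at 32-weeks, with a log2 fold change of 0.42 (adjusted p = 0.125), and Arg2. Arg2 held 4.04, 2.47 and 2.61 FPKM in FA against 0.935, 3.77 and 3.17 FPKM in PM2.5 at 4-weeks. At 32-weeks it held 1.47, 0.147 and 0.980 FPKM in FA, and 0.554 and 1.17 FPKM with 1 library listed at 0 in PM2.5. All 4-weeks libraries but 1 were above all 32-weeks libraries. Arg2 passed the filter of the AΦ model through the 4-weeks libraries (mean 2.83 FPKM). Its 32-weeks means were 0.720 FPKM in TR-AΦ and 0.923 FPKM in BM-AΦ, so its presence in the model leans on the group where it was higher. The log2 fold change was -1.17 ± 0.36 (adjusted p = 0.0690), and without the low PM2.5 library of 4-weeks (replicate 0) it was -1.37 (0.0361). Within FA alone and within PM2.5 alone it was -1.17 in both (adjusted p = 0.366 and 0.283), where 0 members were called, 1 member each had an unadjusted p under 0.05, and 0.782% and 1.05% of all genes were called (12.1% and 15.2% unadjusted). In FA the groups of Arg2 did not overlap, as did not those of 7.94% of all genes in that direction.

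The difference between the time changes of the 2 cell types was then tested in CD45.2 cells, where 7.88% of all genes were called (20.3% by unadjusted p under 0.05, against 4 of 6 members). Rac2 changed by 0.98 ± 0.19 more on the log2 scale in AΦ than in monocytes (adjusted p = 0.00178). In AΦ it held 31.1 to 44.3 FPKM at 4-weeks and 34.9 to 49.3 FPKM in TR-AΦ at 32-weeks, and these ranges overlapped. Cyba differed by 0.75 ± 0.19 (adjusted p = 0.0129). It was 415.7 to 502.7 FPKM in monocytes at 4-weeks and 296.8 to 429.7 FPKM at 32-weeks, while in TR-AΦ the ranges given above overlapped. Cyba lost this call with quantile normalization (0.62, adjusted p = 0.0751) and with rescaling to the same sum (0.61, adjusted p = 0.136). For Cybb the difference was 0.84 (adjusted p = 0.0633).

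**Figure D2:**
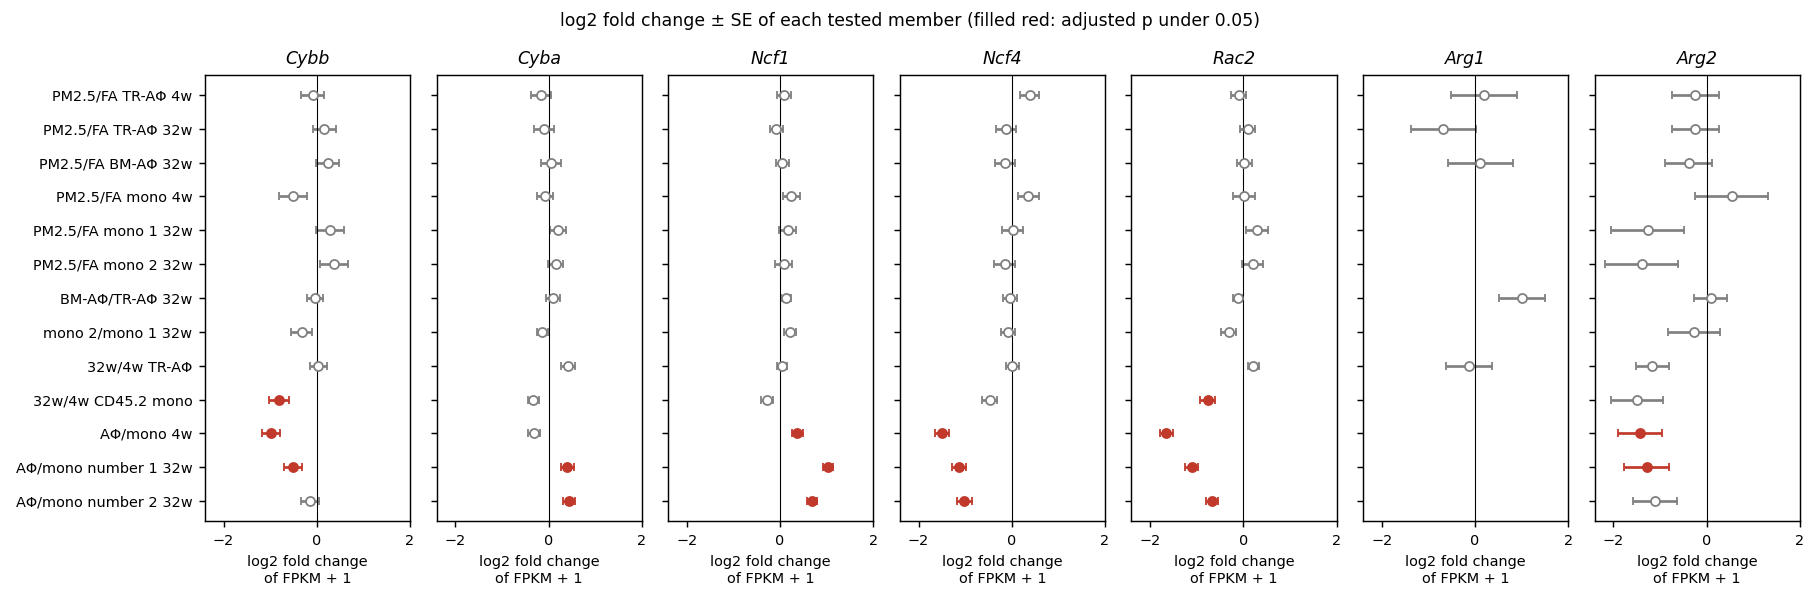
Log2 fold change of FPKM + 1 (x axis) with its SE for the 7 members that entered a model, in 13 comparisons (rows). Filled red points passed an adjusted p of 0.05, and rows with no point for Arg1 are models it did not enter. Red points appear for Rac2 and Cybb in CD45.2 monocytes over time and for AΦ against monocytes, and none in the rows of PM2.5 over FA.

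Origin was compared at 32-weeks with FA and PM2.5 libraries together. No member was called by limma, or had an unadjusted p under 0.05, for BM-AΦ against TR-AΦ (0.316% of all genes called, 7.45% unadjusted) or for monocytes 2 against monocytes 1 (0.669% called, 9.59% unadjusted). The oxidase members were within 0.13 of 0 on the log2 scale between BM-AΦ and TR-AΦ, from -0.12 for Rac2 to 0.13 for Ncf1.

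Arg1, the arginase linked to alternative activation, was low in most AΦ. It passed the filter of a mean of 1 FPKM through BM-AΦ (mean 2.72 FPKM), as TR-AΦ had means of 0.507 FPKM at 32-weeks and 0.595 FPKM at 4-weeks, so its presence in the model leans on the group where it was higher. BM-AΦ held 0.897, 0.0800 and 8.48 FPKM in FA against 0.413, 2.57 and 3.88 FPKM in PM2.5. TR-AΦ of 32-weeks held 0.921 and 1.82 FPKM in FA against 0.309 FPKM in PM2.5, with the other 3 libraries listed at 0. The 3 highest values were all in BM-AΦ, and the remaining 3 BM-AΦ libraries lay inside the TR-AΦ range. The log2 fold change was 1.01 ± 0.50 (adjusted p = 0.705, exact permutation p = 0.0844 for 6 against 6 libraries, where the smallest possible is 0.00216).

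Nos2, the inducible synthase of nitric oxide, was listed at 0 in 28 of 36 libraries. Its 3 highest values, 0.160, 0.105 and 0.0870 FPKM, were all in BM-AΦ. The other libraries above 0 were at 0.0309 to 0.0484 FPKM. It entered no model, and its exact permutation p was 0.182 or more in each of the 13 comparisons of groups.

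AΦ and monocytes were compared at 4-weeks and, at 32-weeks, for cells of number 1 (BM-AΦ against monocytes 1) and of number 2 (TR-AΦ against monocytes 2). These comparisons use the same libraries as those above. Called members were 5 of 6 at 4-weeks (1 higher and 4 lower in AΦ), 6 of 6 for number 1 (2 higher and 4 lower) and 4 of 6 for number 2 (2 higher and 2 lower). Of all genes 48.2%, 50.9% and 47.3% were called, so the counts for 6 genes stand against a background in which about every other gene differed. Higher in AΦ were 22.6%, 27.1% and 23.6% of all genes, and lower were 25.5%, 23.8% and 23.7%. The medians of the members were -1.21, -0.81 and -0.41 on the log2 scale, against -0.02, 0.03 and 0 for all genes. After each library was rescaled to the same sum the median of all genes was 0.17, 0.29 and 0.11.

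Rac2 and Ncf4 were lower in AΦ in all 3 comparisons, without overlap. Over 18 libraries each, Rac2 was at 31.1 to 49.3 FPKM in AΦ (median 39.7) and at 53.8 to 130 FPKM in monocytes. Its log2 fold change was -1.65 ± 0.14 at 4-weeks (adjusted p = 9.47e-11), -1.10 for number 1 (1.61e-07) and -0.67 for number 2 (0.000202). In monocytes 1 it held 60.6, 93.8 and 80.6 FPKM under FA and 86.3, 86.6 and 112.7 FPKM under PM2.5, with group means between those of 4-weeks monocytes and monocytes 2.

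Ncf4 was at 4.36 to 9.21 FPKM in AΦ and at 11.3 to 27.6 FPKM in monocytes, with log2 fold changes of -1.50 (adjusted p = 4.44e-09), -1.13 (6.64e-07) and -1.01 (3.66e-06). At 4-weeks it held 18.2, 22.9 and 15.3 FPKM in FA monocytes and 27.6, 24.1 and 20.9 FPKM in PM2.5 monocytes. The lowest of these was well above the highest AΦ library of that time, at 8.80 FPKM.

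In the order of the 12 group means all 6 monocyte groups came before all 6 AΦ groups for both genes. The lowest monocyte group and the highest AΦ group did not overlap, and neighbours within each cell type did. Groups that did not overlap, with AΦ lower, were seen for 16.1%, 14.7% and 14% of all genes.

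Ncf1, the organiser p47phox that carries the activating phosphorylation sites, lay the other way. It was at 94.0 to 148.2 FPKM in AΦ and at 54.5 to 102.2 FPKM in monocytes. At 32-weeks TR-AΦ held 106.0, 125.1 and 139.6 FPKM under FA and 121.5, 111.7 and 115.7 FPKM under PM2.5, and monocytes 2 held 83.1, 69.1 and 65.4 FPKM under FA and 65.1, 88.6 and 76.2 FPKM under PM2.5. Every TR-AΦ library was above every library of monocytes 2. AΦ were higher by 0.37 on the log2 scale at 4-weeks (adjusted p = 0.00783), by 1.03 for number 1 (1.70e-08) and by 0.68 for number 2 (1.25e-05). At 4-weeks the groups overlapped, since 1 FA AΦ library at 94.0 FPKM lay within the monocyte range, and at 32-weeks they did not, as for 16.1% and 12.9% of all genes in that direction. With only replicates 0 and 1 the 4-weeks value was 0.33 (adjusted p = 0.0947).

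**Figure D3:**
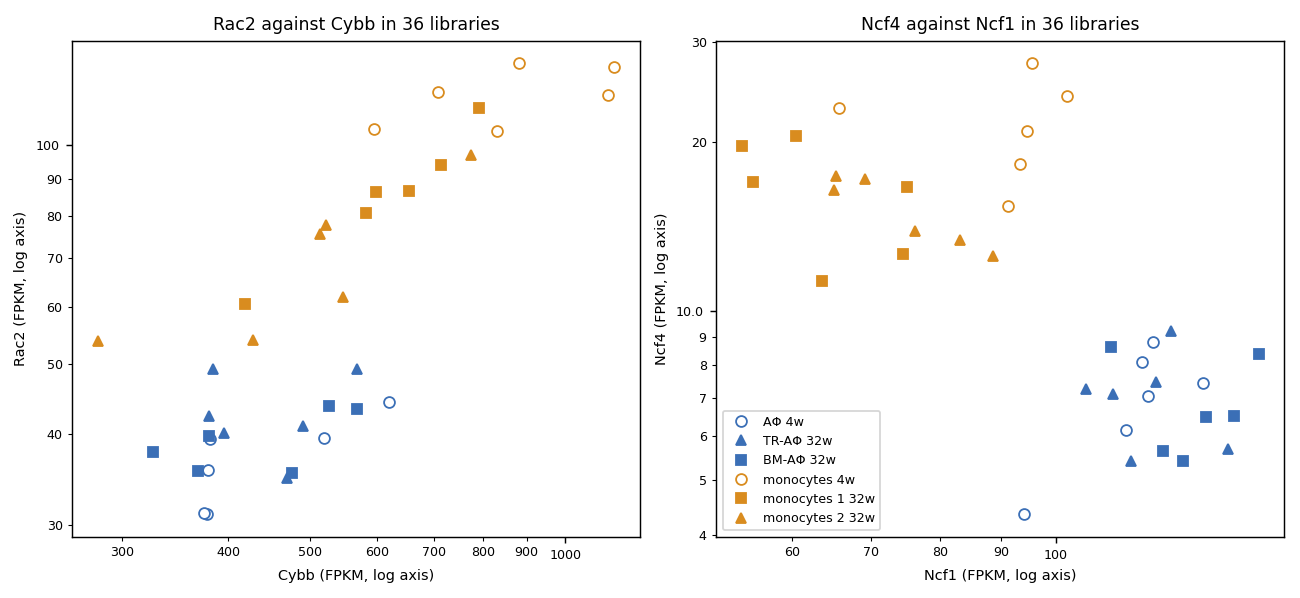
Rac2 against Cybb (left) and Ncf4 against Ncf1 (right) in FPKM on log axes, with 1 point per library for all 36, blue for AΦ and orange for monocytes, open circles for 4-weeks. Rac2 and Cybb rise together within the monocytes, and AΦ and monocytes fall into separate clouds for Ncf4 against Ncf1 with higher Ncf4 and mostly lower Ncf1 in monocytes.

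The proportions of the subunit transcripts therefore differed between the cell types, while the proteins were not measured. For Ncf4 and Ncf1 this follows from the levels given above and is not a separate result. The ratio of Ncf4 to Ncf1 was 0.0407 to 0.0775 in AΦ and 0.142 to 0.361 in monocytes, with no overlap over 36 libraries. The ratio of Rac2 to Rac1, the widely expressed relative that shares much of its sequence, was 0.121 to 0.178 in AΦ, 0.502 to 0.635 in 4-weeks monocytes and 0.228 to 0.460 in 32-weeks monocytes. The 3 ranges did not overlap, and both ratios come from values per length.

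Cybb was lower in AΦ at 4-weeks, at 374.2 to 618.9 FPKM against 594.6 to 1143 FPKM, with a log2 fold change of -0.98 ± 0.20 (adjusted p = 0.000151). For number 1 it was -0.51 (adjusted p = 0.0338), at 326.4 to 567.3 FPKM against 418.3 to 789.8 FPKM. This call was lost with quantile normalization (-0.10), with rescaling (-0.11), with no filter on low values (adjusted p = 0.0565) and without any 1 of 6 libraries (FA replicates 0 and 1 and PM2.5 replicate 0 of BM-AΦ, FA replicates 1 and 2 and PM2.5 replicate 2 of monocytes 1). For number 2 the groups overlapped widely and the value was -0.14 (adjusted p = 0.591), with the sign turned to 0.16 by quantile normalization and to 0.04 by rescaling.

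Cyba, the partner of Cybb in the membrane, was not called at 4-weeks (-0.31, adjusted p = 0.0585), with its sign turned to 0.13 by quantile normalization and to 0.01 by rescaling. At 32-weeks it was higher in AΦ, by 0.41 for number 1 (adjusted p = 0.0139) and by 0.44 for number 2 (adjusted p = 0.00850). BM-AΦ held 508.2, 484.4 and 570.0 FPKM under FA and 583.2, 495.8 and 538.7 FPKM under PM2.5. Monocytes 1 held 387.0, 314.5 and 418.8 FPKM under FA and 456.9, 407.8 and 424.3 FPKM under PM2.5. For number 1 the highest monocyte library was below the lowest AΦ library, a separation seen for 16.1% of all genes in that direction. For number 2 the groups overlapped, at 428.0 to 566.4 FPKM in TR-AΦ against 296.8 to 429.7 FPKM in monocytes 2. The value for number 1 was 0.41 with only replicates 0 and 1, where its adjusted p was 0.0791. The table gives Cyba a locus of 4.44 Mb, far beyond the gene itself, and Gm20388 overlaps it, so its level is uncertain.

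Arg2, the mitochondrial arginase, was lower in AΦ at 4-weeks (-1.43, adjusted p = 0.0155), at 0.935 to 4.04 FPKM against 5.28 to 24.4 FPKM, without overlap. For number 1 it was -1.29 (0.0276) and for number 2 -1.10 (0.0613), with overlap in both. The 4-weeks call was lost with a pseudocount of 0.1 (-1.72, adjusted p = 0.0823) and without PM2.5 replicate 2 of the monocytes (-1.15, 0.0594) or PM2.5 replicate 0 of TR-AΦ (-1.23, 0.0503). The call for number 1 was lost without any 1 of 6 libraries (FA replicate 1 and PM2.5 replicates 0 and 2 of BM-AΦ, FA replicates 1 and 2 and PM2.5 replicate 0 of monocytes 1), with adjusted p of 0.0603 to 0.0974. The 2 highest 4-weeks monocyte libraries, at 12.3 and 24.4 FPKM, were those with 410.2 and 1159 FPKM of neutrophil markers, and with only replicates 0 and 1 the 4-weeks value was -1.02 (adjusted p = 0.155). Arg2 overlaps an antisense gene, Gm48780, and Vti1b on the other strand.

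Rac2 and Cybb also varied together among libraries of a cell type. Over the 18 monocyte libraries Pearson's r of their log2 values was 0.90 (Spearman's rho 0.91), and 0.87 without the 2 libraries farthest from the median of Cybb. Over the 18 AΦ libraries r was 0.47 (rho 0.65), and 0.29 without the farthest 2. Ncf1 and Ncf4 gave r of 0.17 in monocytes (rho 0.20, and 0.12 without the farthest 2) and 0.25 in AΦ (rho 0.08, with the sign turned to -0.27 without the farthest 2). The points share their groups and libraries, and these are descriptions without a test.

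By Pearson's r over all 36 libraries, among 13306 genes, the gene most like Rac2 was Samhd1 (0.97), the most like Ncf4 was Adar (0.95), the most like Ncf1 was Ccnd2 (0.91) and the most like Cybb was Osbpl8 (0.91). Arg2 was most like Clec4d (0.90) and Cyba was most like Capns1 (0.81), which was also among its nearest 3 in the 18 AΦ libraries (0.93). The 36 points fall into the 2 cell types, which share a gap in level for several of these genes. Within the 18 monocyte libraries the nearest genes were Gm15987 for Cybb (0.96), Stat3 for Arg2 (0.95), Lrrc8b for Rac2 (0.95), Leng9 for Cyba (0.87), Gm25202 for Ncf1 (0.81) and Adar for Ncf4 (0.79). Within the 18 AΦ libraries they were Rps26-ps1 for Cyba (0.94), Bzw1 for Cybb (0.90), Afg3l2 for Ncf1 (0.86), Tgif1 for Arg2 (0.86), Pcdhgc3 for Rac2 (0.85) and Pias3 for Ncf4 (0.82).

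The other parts and activators of the oxidase showed where the rest of the machine lay. Of 7 such genes tested, 1 was higher and 4 were lower in AΦ at 4-weeks (median -0.56), 2 and 4 for number 1 (-0.34), and 2 and 3 for number 2 (-0.19), against the shares of all genes given above (22.6% to 27.1% higher and 23.7% to 25.5% lower). Hvcn1, the voltage-gated proton channel that offsets the charge the oxidase moves, was at 80.5 to 153.4 FPKM in AΦ and 0.855 to 34.2 FPKM in monocytes. AΦ were higher by 5.05, 4.30 and 3.33 on the log2 scale (adjusted p = 8.70e-14, 2.55e-12 and 3.52e-10), while the members Rac2 and Ncf4 lay on the other side.

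Prkcd, a kinase of Ncf1, was lower in AΦ, with log2 fold changes of -1.65, -1.20 and -0.86, and Rap1a, a small GTPase found with the flavocytochrome, with -1.65, -0.96 and -1.08. Arhgdib, which holds Rac proteins in the cytosol, had -1.31, -0.48 and -0.76, and Rac1 had 0.26 at 4-weeks (adjusted p = 0.0923) and was higher at 32-weeks by 0.47 and 0.37. Over time in CD45.2 monocytes 1 gene rose (Hvcn1, by 2.13) and 3 fell (Prkcd -0.79, Arhgdib -0.61 and Vav1 -0.37), with a median of -0.57, and in TR-AΦ Hvcn1 rose by 0.40. Of all genes 14.9% were called in CD45.2 monocytes and 7.83% were lower, with a median of -0.05, and 5.91% were called in TR-AΦ. Beside the rise of Hvcn1, a gene high in AΦ, AΦ markers at 1 FPKM or more numbered 6 to 8 of 12 in 4-weeks monocytes and 11 to 12 of 12 in monocytes 2. Their summed levels overlapped, at 475.5 to 796.2 FPKM (median 593.7) against 410.1 to 1668 FPKM (median 638.6). The part of these markers was not tested. Of the other NADPH oxidases, none reached a mean of 1 FPKM, Noxo1 and Nox4 being the highest with at most 0.979 and 0.723 FPKM in a library.

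The nitric oxide list held 14 genes, of which 5 were tested. Nos1 was listed at 0 in 17 of 18 AΦ and 16 of 18 monocyte libraries and Nos3 in 15 and 8. Gch1, which makes the first step of the cofactor tetrahydrobiopterin, was lower in AΦ by log2 fold changes of -1.27, -1.10 and -0.90, and it fell over time in TR-AΦ (-0.72, adjusted p = 0.000537) and in CD45.2 monocytes (-1.09, adjusted p = 0.00325). Qdpr, which regenerates the cofactor, was higher in AΦ by 2.49, 2.41 and 2.02 and rose over time in monocytes by 0.82.

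Arginine handling split by transporter. Slc7a2, a carrier of cationic amino acids that supplies macrophages with arginine, was at 99.7 to 213.0 FPKM in AΦ and at 0 to 26.4 FPKM in monocytes, and AΦ were higher by 6.56, 5.89 and 4.40 on the log2 scale (adjusted p = 3.09e-15, 3.44e-14 and 1.11e-11). Slc7a1, the widely expressed carrier, was lower with -1.37, -0.39 and -0.50. Of 13 genes tested on this list 3 were higher and 6 lower in AΦ at 4-weeks (median -0.18), 5 and 3 for number 1 (0.11), and 4 and 3 for number 2 (-0.07), against those same shares of all genes.

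Downstream of the arginases, Odc1, which turns ornithine into putrescine, was lower in AΦ at 4-weeks (-1.59), and Aldh18a1, which makes precursors of proline and ornithine from glutamate, was higher in all 3 comparisons (0.91, 1.52 and 1.55). In CD45.2 monocytes over time 2 rose (Slc7a2, from a mean of 0.184 to 7.87 FPKM, and Srm by 1.07) and 5 fell, among them Odc1 (-1.38), Azin1 (-1.09) and Slc7a1 (-0.84). Of all genes 14.9% were called in this comparison and 7.83% were lower. Slc7a2 passed the filter of the monocyte model through the 32-weeks libraries, so its presence there leans on the group where it was higher. Slc7a2 is also high in AΦ, and the same count of AΦ markers, from 6 to 8 up to 11 to 12 of 12, went with its rise. The summed levels of those markers overlapped, at 475.5 to 796.2 FPKM in 4-weeks monocytes against 410.1 to 1668 FPKM in monocytes 2. Epcam, at 26.7 to 79.0 FPKM in AΦ, had means of 0.243 FPKM in 4-weeks monocytes and 1.61 FPKM in monocytes 2. The part of these in the rise was not tested. In TR-AΦ over time 0 of 13 were called, against 5.91% of all genes. No gene of these 3 lists was called for PM2.5 against FA, for BM-AΦ against TR-AΦ or for monocytes 2 against monocytes 1.

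**Figure D4:**
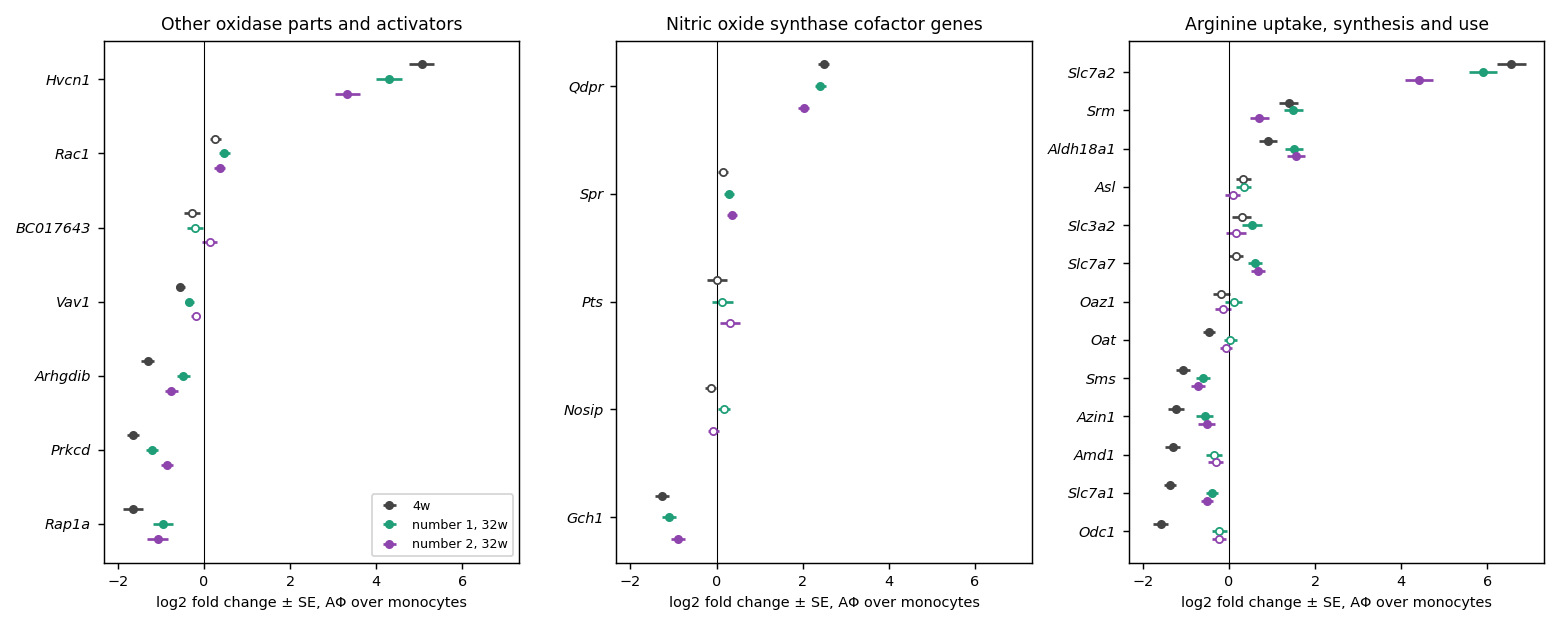
Log2 fold change of AΦ over monocytes (x axis, ± SE) for the tested genes of the oxidase, nitric oxide and arginine lists, at 4-weeks (grey), for number 1 at 32-weeks (green) and for number 2 at 32-weeks (purple). Filled points passed an adjusted p of 0.05, and Hvcn1 and Slc7a2 lie far to the right of all others.

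Among 13 regulators known to act on the members, 1 was higher and 9 were lower in AΦ at 4-weeks (median -0.94), 0 and 6 for number 1 (-0.43), and 1 and 7 for number 2 (-0.75). Over all genes 22.6%, 27.1% and 23.6% were higher and 25.5%, 23.8% and 23.7% were lower in the same comparisons. The receptor subunits of interferon gamma, which drives Nos2 and Cybb in macrophages, were among the lower genes in all 3, with Ifngr1 at -1.56, -1.56 and -1.73 and Ifngr2 at -1.17, -1.09 and -1.33. Spi1 stayed within 71.5 to 126.8 FPKM over all 36 libraries. Over time Irf1, an interferon-induced factor that acts on Nos2, fell by 2.16 in TR-AΦ (adjusted p = 2.76e-06), from 28.3 to 51.6 FPKM at 4-weeks to 4.64 to 9.13 FPKM at 32-weeks, and by 0.76 in CD45.2 monocytes (adjusted p = 0.0242).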

How the data were processed

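RNA-sequencing of sorted lung AΦ and monocytes gave 36 libraries, grouped by the labels. The authors made stranded SMART-Seq libraries, trimmed reads with TrimGalore, aligned them to mm10 with STAR and deposited FPKM from Cufflinks, which are normalized for depth and transcript length. The reads behind a value are unknown, so no counting interval was given. Values were analysed as log2(FPKM + 1), a scale that understates changes of low genes, with limma 3.58.1 in R 4.3.3 (1 mean per group, trended variance). The filter kept a gene when its mean was 1 FPKM or more, which left 12665 for AΦ, 12856 for monocytes and 13307 for both. P-values were adjusted by Benjamini-Hochberg within a comparison at 0.05. Exact two-sided permutation tests used single genes. Figures used matplotlib 3.10.9. The members, the gene lists and the rule for naming genes (all members, and up to 3 list genes per direction with the largest called change) were chosen with earlier results of these data known. Some genes named for their role (Spi1, Slc7a1, Arhgdib and others) were picked outside that rule after their values were seen. Alternatives were a pseudocount of 0.1, no filter, quantile normalization, rescaling to a common sum, a model of only the compared groups, replicate blocks and leaving out each library; leaving out all libraries numbered 2 was added after seeing the data. The procedure was tested on simulated data. 1 gene of the oxidase list is not reported here. Libraries of a group are from separate mice, and populations may share mice.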

Additional observations from a re-analysis of the deposited data

Results flagged for a closer look

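The test of the difference between the time changes of AΦ and monocytes (32-weeks over 4-weeks in CD45.2 cells, AΦ minus monocytes, log2 scale, limma) picked out 2 members and 8 pathway genes. Rac2 (0.98) and Cyba (0.75) changed more upwards, or fell less, in AΦ. So did Odc1 (1.35), Amd1 (1.0), Slc7a1 (0.86), Prkcd (0.78) and Spi1 (0.47). By cell type Rac2 changed by 0.21 in TR-AΦ and by -0.76 in monocytes, and Cyba by 0.42 and -0.33. Slc7a2 (-2.15), Hvcn1 (-1.73) and Irf1 (-1.39) changed more upwards, or fell less, in monocytes. Interstitial macrophage markers also differed over time in these monocytes, from 4.43 to 422.8 FPKM at 4-weeks to 914.6 to 3388 FPKM at 32-weeks, and AΦ markers were at 475.5 to 796.2 and 410.1 to 1668 FPKM, with 6 to 8 and then 11 to 12 of 12 of them at 1 FPKM or more. Their part in these differences was not tested.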

How the results depend on the processing

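The counts of members called moved by over 1.5 times in few alternatives. For 32-weeks against 4-weeks in CD45.2 monocytes 1 member (Rac2) was left with quantile normalization, with rescaling to a common sum and with only replicates 0 and 1, and 1 to 3 were called when single libraries were left out. For the cell type by time difference 1 member (Rac2) was left under the same 3 alternatives, and for AΦ against monocytes at 4-weeks 3 were left (0 higher, 3 lower) with only replicates 0 and 1. For 32-weeks against 4-weeks in TR-AΦ leaving out single libraries gave 0 to 1. The sign turned for Cyba in AΦ against monocytes at 4-weeks (0.13 with quantile normalization, 0.0121 with rescaling) and for Cybb in number 2 (0.157 and 0.0406). Outside single left-out libraries, 123 other counts kept within 1.5 times of their value. Many of these were counts of 0 that stayed at 0, as in comparisons of PM2.5 with FA, and they say little about stability. The cause of the changes in count and sign was not tested. With the replicate number as a block 1 member (Cyba, 0.42, adjusted p = 0.0451) was called in TR-AΦ over time, and Cyba in CD45.2 monocytes over time (-0.33, 0.0216) and in AΦ against monocytes at 4-weeks (-0.31, 0.0114) and Cybb in the cell type by time difference (0.84, 0.00262) passed as well. Deviations of libraries with the same number correlated by -0.0868 to 0.209 between exposures (18 pairs, 4 over 0.1), and by -0.0415 to 0.0932 between cell populations of the same exposure and time, which may share mice (30 pairs, 0 over 0.1). The best correlation was with the own number in 13 of the 18 and 19 of the 30, a hint from the data, and whether a number marks a mouse is not settled. With exposure, time point and number as the block Cyba in AΦ against monocytes at 4-weeks (0.00662) and Arg2 in number 2 (-1.10, 0.0327) passed as well. The unknown number of reads behind a value limits Nos2, Arg1 and Arg2 most.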

Other observations

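Genes of classical and alternative activation were compared over time. Of 8 classical activation genes tested, 4 were lower at 32-weeks in TR-AΦ (median -2.35 against 0.03 for all genes, of which 5.91% were called in either direction), with Cxcl10 at -5.60, Il1b at -3.10 and Tnf at -3.07 on the log2 scale, and 4 of 8 were lower in CD45.2 monocytes (median -1.62 against -0.05 for all genes, of which 14.9% were called in either direction and 7.83% were lower). Of 9 alternative activation genes 4 were higher in CD45.2 monocytes at 32-weeks (median 1.27), against the same 14.9% called and median of -0.05 for all genes. They included Cd163 at 4.63, Mrc1 at 3.35 and Mgl2 at 2.62, of which Cd163 and Mrc1 are also on the list of interstitial macrophage markers. In TR-AΦ 0 of 8 were called by limma.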
